A study of Rattus norvegicus with 56 samples.

Results

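Fetal rat myocardium with a ventricular septal defect (VSD) was compared with fetal myocardium whose septum was intact after the same exposure to dimethadione (DMO), the active metabolite of the anticonvulsant trimethadione and a known cause of heart defects in rodents. The comparison holds 7 VSD and 7 non-VSD samples, 14 of the 56 samples of a study that also profiled amniotic fluid, maternal serum and unexposed fetuses. Members were chosen by their labels, that is myocardium, DMO and the state of the septum. Dams of both groups were Sprague-Dawley rats gavaged with DMO from D8 of pregnancy, at 5 ml/kg of a 60 mg/ml solution every 12 h for 6 doses, and hearts were taken on D19. The NC group, 7 samples used below for levels only, came from dams gavaged with distilled water. VSD fetuses had no malformation of the great vessels, and fetuses with an umbilical hernia, edema or another visible abnormality had been left out of the study. Which dam bore each fetus is not given in the sources used here, so no test could take litter into account, and p-values measure only the spread between these samples, which may be partly technical. RNA came from wax blocks of the heart, and small RNA was sequenced on the Illumina HiSeq 2500.

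A microRNA is a short RNA that is cut from a hairpin as 2 arms, named 5p and 3p, and pairs with messenger RNAs mainly through its seed, bases 2 to 8, which lowers the output of those messages. Heart muscle carries its own set of microRNAs, such as miR-1, miR-133, miR-208 and miR-499, which are known for holding cardiomyocytes in their differentiated state. Other sets mark epithelia, ciliated cells, blood cells or early embryonic cells, and the septum itself forms from muscle together with mesenchyme of the endocardial cushions.

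Of 661 microRNAs listed, 474 passed the filter on low counts. The sequences that carry the differences are given first, 5′ to 3′, from RefSeq (GRCr8), with the seed in capitals. RefSeq held a mature sequence for 436 of the 474 tested microRNAs and for 33 of the 36 that met the threshold used below. MiR-200a-3p, miR-429 and miR-124-3p are named only. The miR-34 and miR-449 microRNAs are shown because 4 called members have the same seed. All 5 tested carriers of GGCAGUG with a sequence (miR-34a-5p included) had a positive log2 fold change.
miR-34c-5p: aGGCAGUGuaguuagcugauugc
miR-34b-5p: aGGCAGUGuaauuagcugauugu
miR-449a-5p: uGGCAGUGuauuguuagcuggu
miR-449c-5p: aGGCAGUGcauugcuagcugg

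MiR-7b is shown beside miR-7a-5p, which lies 1 edit away and has the same seed but did not meet the threshold. MiR-92b-3p and miR-338-3p had large differences as well.
miR-7b: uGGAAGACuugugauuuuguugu
miR-7a-5p: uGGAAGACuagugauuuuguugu
miR-92b-3p: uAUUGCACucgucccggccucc
miR-338-3p: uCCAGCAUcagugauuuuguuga

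The called epithelial microRNAs with a sequence and the called members of the miR-183-96-182 cluster do not have a common seed. The seeds of miR-200a-3p and miR-429 could not be compared.
miR-205: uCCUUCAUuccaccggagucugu
miR-375-3p: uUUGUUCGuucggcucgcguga
miR-203a-3p: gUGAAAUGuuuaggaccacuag
miR-141-3p: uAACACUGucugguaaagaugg
miR-200b-5p: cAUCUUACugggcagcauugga
miR-182: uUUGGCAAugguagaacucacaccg
miR-183-5p: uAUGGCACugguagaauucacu

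Among the microRNAs lower in the VSD group, those of the miR-290-295 cluster are shown for the letters AAGUGC at or next to their seed. The letters start at base 2 in miR-291a-3p and miR-291b and at base 1 in miR-292-3p and miR-295-3p. Of the 436 tested microRNAs with a sequence, 9 (2.06%) held AAGUGC within their first 8 bases, and the other five belong to the miR-17 family.
miR-291a-3p: aAAGUGCUuccacuuugugugcc
miR-291b: aAAGUGCAuccauuuuguuagu
miR-292-3p: aAGUGCCGccagguuuugagugu
miR-295-3p: aAGUGCUAcuacuuuugggugu
miR-292-5p: aCUCAAACugggggcucuuuug

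A second set of lower microRNAs is encoded on the X chromosome, 5 of them within a stretch from 151706741 to 151732835 on the minus strand.
miR-3585-3p: uGAACGGCccuuguuguga
miR-201-5p: cACUCAGUaaggcauuguuc
miR-547-3p: aUUGGUACuucuuuaagugaga
miR-547-5p: uCACUUCAggauguaccaccca
miR-509-3p: uGAUUGACaugucugcagugga
miR-504: aGACCCUGgucugcacucuguc

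VSD libraries held 1694811 to 9182491 counts (median 8159467), and non-VSD libraries 3982546 to 8316564 (median 5514715). The difference of mean log2 totals was 0.25 (exact permutation test, two-sided, p = 0.5635), and 0.58 without VSD 3, the smallest library (p = 0.00874 by the same exact test). Levels are given as CPM, that is counts per 1000000 after TMM scaling, which takes most microRNAs to be equal between libraries. A microRNA without any count in VSD 3 could still be present at 1.77 CPM, where only counting error is considered. No pair of libraries within a group agreed within sampling noise. The first principal component of log2 levels held 44.5% of the variance and put VSD 1, VSD 4 and VSD 5 at one end and non-VSD 1 and non-VSD 2 at the other, so counts below are also given without these libraries. All 14 libraries held heart markers, though not at even levels. The summed heart and skeletal muscle list, described below, was at 15810 CPM in VSD 1 and 22860 in VSD 4, against 63770 in the lowest non-VSD sample. Within that list miR-208a-3p, encoded in a cardiac myosin gene, lay between 48.3 and 115 CPM in the VSD group and between 38.9 and 167 CPM in the non-VSD group.

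The study's threshold for DE-microRNAs was an unadjusted p under 0.05 together with a fold change of 2 or more in either direction. By edgeR's quasi-likelihood test 36 microRNAs (7.59% of those tested) met this threshold between the VSD group and the non-VSD group. In the VSD group 23 were higher (4.85%) and 13 were lower (2.74%). The higher ones included miR-34 and miR-449, miR-7b and epithelial microRNAs, and the lower ones miR-147 and members of the miR-290-295 cluster and of the X chromosome. An unadjusted p under 0.05 was reached by 85 microRNAs (17.9%), of which 48 (10.1%) were higher and 37 (7.81%) lower, and an exact permutation p under 0.05 by 91 (19.2%). After Benjamini-Hochberg adjustment over the 474, edgeR and limma called 0 (0%), and DESeq2 called 7, which were miR-34b-5p, miR-34c-5p, miR-449a-5p, miR-449c-5p, miR-7b, miR-20b-5p and miR-494-3p. At an unadjusted p under 0.05 limma called 92 and DESeq2 98. For 0 microRNAs did the groups fail to overlap. Log2 fold changes were balanced over the whole table, with 237 positive and 237 negative and a median of -0.0028.

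These counts depended on a few libraries. Without VSD 1, VSD 4 and VSD 5 there were 10 higher and 5 lower DE-microRNAs, and 9 of the 36 were among them. Without non-VSD 1 and non-VSD 2 there were 11 higher and 8 lower, 16 of them among the 36. Scaling by library size only shifted the median of all microRNAs by 0.19 and gave 35 higher and 7 lower, and the library totals of the authors gave 36 and 8. Leaving out 1 library at a time left between 16 and 33 higher and between 7 and 15 lower, the lower count being 7 without VSD 4 or non-VSD 7 and 8 without VSD 1, non-VSD 1 or non-VSD 2. At an adjusted p under 0.05, 2 microRNAs were called without VSD 7 (miR-509-3p and miR-547-3p) and 2 without non-VSD 3 (miR-34c-5p and miR-449c-5p).

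**Figure D1:**
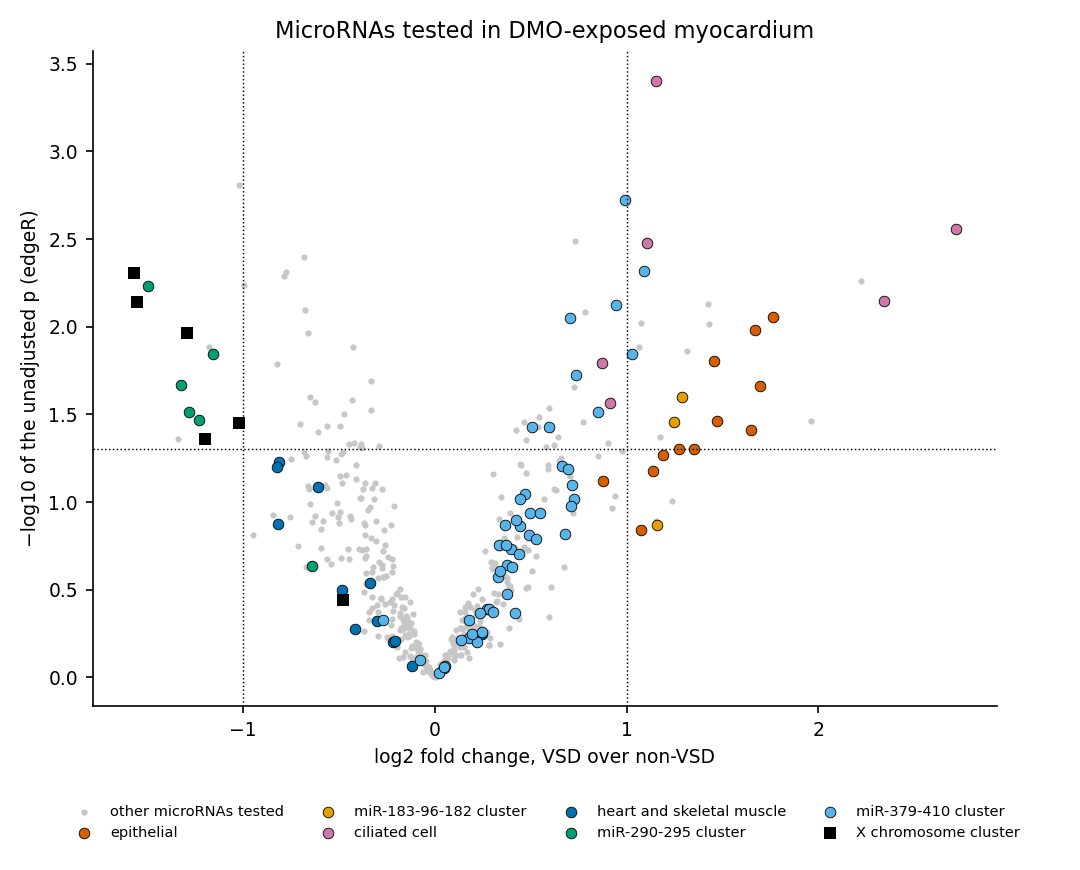
Each point is 1 of the 474 microRNAs tested in DMO-exposed myocardium, with the log2 fold change of VSD over non-VSD on the x axis and −log10 of edgeR's unadjusted p on the y axis. Dotted lines mark a p of 0.05 and a fold change of 2 or 0.5. The called ciliated cell and epithelial microRNAs sit at the upper right, and those of the miR-290-295 cluster and the X chromosome cluster at the upper left, while no heart and skeletal muscle microRNA passes both lines.

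MiR-34c-5p had the lowest p of the whole comparison. This microRNA and its relatives are abundant in cells with motile cilia, and the miR-34 genes are also targets of p53. MiR-34c-5p stood at 461 CPM in the lowest VSD sample, 713 in the median and 1299 in the highest, against 263, 365 and 660 in the non-VSD group. All 7 VSD samples lay above the non-VSD median, and 5 lay above the highest non-VSD sample, which was non-VSD 3. On the log2 scale this was a fold change of 1.15 with a standard error of 0.26 (adjusted p = 0.187 by edgeR, exact permutation p = 0.00175). MiR-34b-5p, from the same transcript, ranged from 6.43 to 23.4 CPM in the VSD group and from 2.43 to 9.32 CPM in the non-VSD group, which gave 1.11 ± 0.32 (log2 fold change ± SE, exact permutation p = 0.00816). Without VSD 1 it was at 0.91, under a fold of 2. The mature sequences of miR-34b-5p and miR-34c-5p differ by 2 edits, so reads could be shared between them. Both lie on the minus strand of chromosome 8 (chr8:60306133-60306155 for miR-34c-5p and chr8:60306657-60306679 for miR-34b-5p, GRCr8), within the span of Hoatz.

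MiR-449a-5p and miR-449c-5p, which lie close together on the plus strand of chromosome 2 (chr2:46403925-46403946 and chr2:46402394-46402414), had larger differences. MiR-449a-5p was at 43.2, 262 and 900 CPM in the lowest, median and highest VSD sample and at 5.05, 34.1 and 262 CPM in the non-VSD group. MiR-449c-5p was at 9.02, 86.5 and 209 CPM against 1.44, 4.42 and 53.5 CPM. In both, every VSD sample exceeded the non-VSD median and 4 exceeded non-VSD 3, the highest of the other group. Log2 fold changes were 2.34 ± 0.76 (SE, exact permutation p = 0.0111) and 2.72 ± 0.77 (exact permutation p = 0.00641), with an adjusted p = 0.191 by edgeR for both. Without non-VSD 3, the 1 single library that moved either fold by over 1.5 times, they were at 3.10 and 3.65. The 3p arms miR-34b-3p and miR-34c-3p had log2 fold changes of 0.87 and 0.91, with a p under 0.05 but a fold below 2. MiR-34a-5p, with the same seed but made from another chromosome and more widely expressed, had a log2 fold change of 0.40 (exact permutation p = 0.408).

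In the ciliated cell list (miR-34b, miR-34c, miR-449a and miR-449c), 6 of 7 listed members were tested. Of these, 4 met the threshold and all 6 had an unadjusted p under 0.05, all higher. Over all microRNAs tested, 4.85% were higher at the threshold and 10.1% at that p. The median log2 fold change was 1.13, against -0.0028 over all microRNAs. This list, like those that follow, was chosen with earlier results of these data known. The summed level of the 6 tested members lay between 679 and 2463 CPM in the VSD group and between 309 and 1005 CPM in the non-VSD group. Fewer cells of a type and less RNA per cell cannot be told apart in such bulk samples, here or in the lists that follow. Without VSD 1, VSD 4 and VSD 5 the median was 0.71 and 1 member met the threshold. MiR-34c-5p was then at 0.77 and miR-449c-5p at 1.88, both with an unadjusted p under 0.05 by edgeR, and miR-449a-5p was at 1.25 with a p over 0.05.

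**Figure D2:**
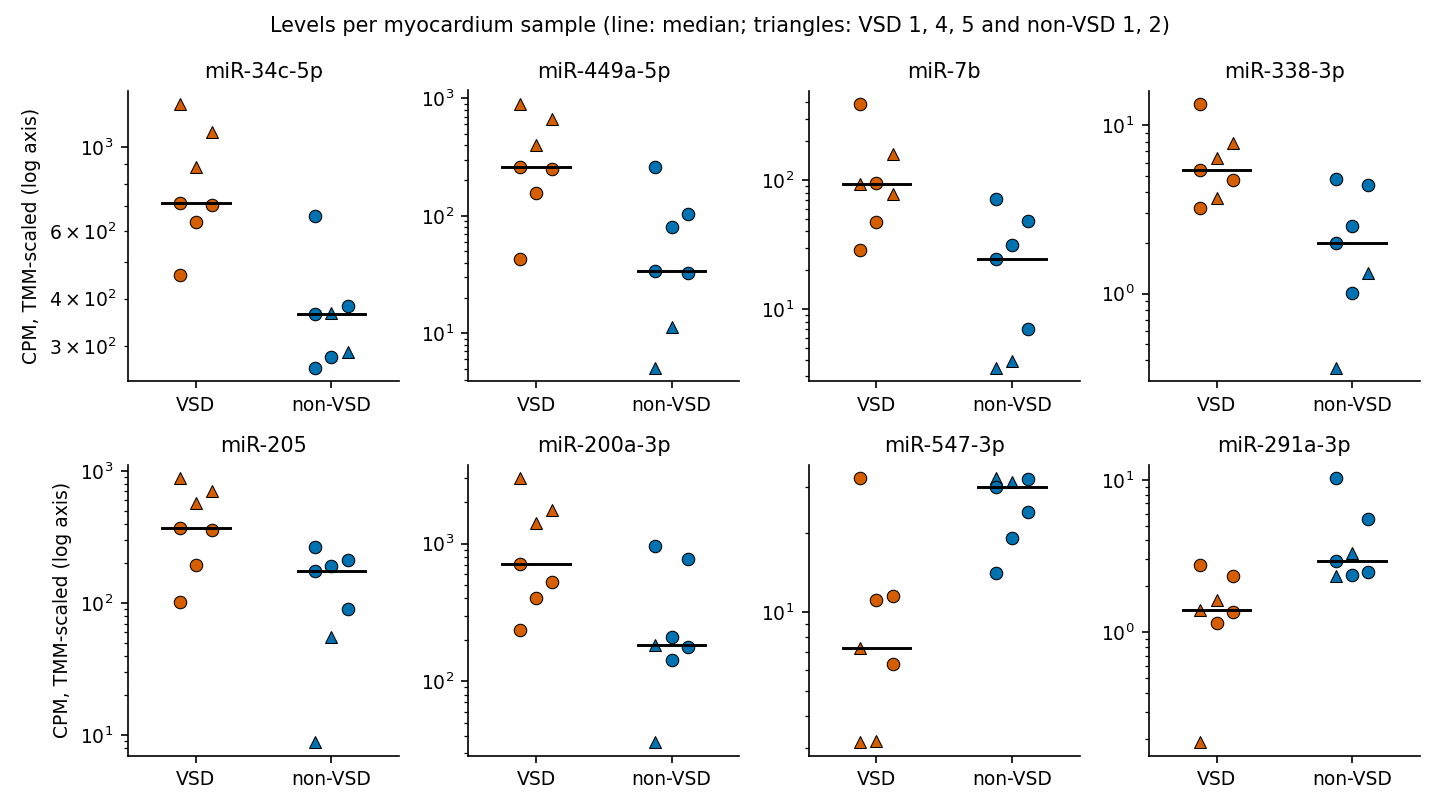
Level of 8 microRNAs in each sample, in TMM-scaled CPM on log axes that differ between panels, with 7 VSD samples at the left and 7 non-VSD samples at the right. Lines are medians, and triangles are VSD 1, VSD 4 and VSD 5 and non-VSD 1 and non-VSD 2. The groups overlap in every panel, with 5 VSD samples above the highest non-VSD sample for miR-34c-5p and miR-7b and 6 below the lowest for miR-547-3p and miR-291a-3p.

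Epithelial microRNAs made up 7 of the 23 higher DE-microRNAs, and among the 14 libraries their summed level was highest in 3 of the VSD group. The miR-200 family (miR-200a, miR-200b, miR-200c, miR-141 and miR-429) is known for keeping the epithelial state by repressing Zeb1 and Zeb2, miR-205 and miR-203 are typical of surface epithelia, and miR-375 of endocrine and other epithelial cells. Of 14 listed members 12 were tested. Against 4.85% of all microRNAs tested that were higher at the threshold, 7 of these 12 met it, all higher. With all 3 groups in one fit 2 met it, as did 2 of 13 tested without non-VSD 1 and non-VSD 2. The median log2 fold change was 1.403 and the lowest was 0.88. MiR-205 was at 103, 367 and 884 CPM in the lowest, median and highest VSD sample and at 8.83, 176 and 268 CPM in the non-VSD group. Of the VSD samples, 5 exceeded the highest non-VSD sample, and non-VSD 1 was the lowest of all 14. MiR-205 thereby differed by 1.67 ± 0.58 (log2 fold change ± SE, adjusted p = 0.191 by edgeR, exact permutation p = 0.0175). MiR-375-3p had a log2 fold change of 1.76, miR-200a-3p of 1.70, miR-141-3p of 1.65, miR-429 of 1.47, miR-203a-3p of 1.46 and miR-200b-5p of 1.27. The other tested members, miR-200c-3p, miR-200b-3p, miR-200a-5p, miR-141-5p and miR-203b-3p, were between 0.88 and 1.35 without meeting the threshold.

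Summed over the 12 tested members, the epithelial level was 17230 CPM in VSD 1, 13290 in VSD 4 and 12680 in VSD 5. In the other 4 VSD samples it was between 2261 and 3613 CPM. In the non-VSD group it ranged from 366 CPM in non-VSD 1 to 7695 CPM in non-VSD 4, with a median of 1948. The 3 high VSD libraries were the only ones above the highest non-VSD sample. Without them 0 of 12 members met the threshold, 0 had an unadjusted p under 0.05 by edgeR, and the median log2 fold change was -0.04. Leaving out the highest samples of a group lowers its mean by construction. Without 1 library at a time, between 3 members (without VSD 1 or VSD 5) and 12 (without non-VSD 4) met the threshold, with 4 without VSD 4, non-VSD 2 or non-VSD 6. MiR-141-3p was at 2.29 without non-VSD 4. MiR-203a-3p lost its call without VSD 5 (1.09) and miR-200a-3p without VSD 1 (1.25), and miR-429, miR-141-3p and miR-200b-5p lost theirs when any 1 of 5 or more libraries was left out (1.002 to 1.65). The same 3 libraries held the most miR-183-96-182 RNA, a cluster first known from sensory cells, at 6378, 6104 and 5562 CPM against 1130 to 1793 in the other VSD samples and 276 to 3255 in the non-VSD group. MiR-182 (log2 fold change 1.29, exact permutation p = 0.0490) and miR-183-5p (1.24, exact permutation p = 0.0967) met the threshold, and miR-96-5p did not (1.16, exact permutation p = 0.265). Both calls were lost without VSD 1 (1.05 for each), VSD 4 (1.08 and 1.04), VSD 5 (1.16 and 1.04) or non-VSD 6 (1.17 and 1.15), and that of miR-183-5p also without non-VSD 5 (1.21). Without VSD 1, VSD 4 and VSD 5 the median of the cluster was -0.04.

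The same libraries were low in heart and skeletal muscle microRNAs. Summed over 12 tested of 15 listed members, these stood at 15810 CPM in VSD 1, 22860 in VSD 4, 52290 in VSD 5 and 52500 in VSD 3, all under the lowest non-VSD sample (63770). VSD 2, VSD 6 and VSD 7, at 85080 to 101300 CPM, lay within the non-VSD range, which reached 117700. None of the 12 met the threshold by edgeR (0 at an unadjusted p under 0.05, but 3 at the threshold by limma and 2 by edgeR without VSD 7), 11 of 12 had a negative log2 fold change, and the median was -0.38. Without VSD 1, VSD 4 and VSD 5 it was -0.07. MiR-1-3p, which restrains cardiomyocyte growth, was at 3175, 15100 and 25560 CPM in the lowest, median and highest VSD sample and at 11890, 25880 and 36390 CPM in the non-VSD group. This amounted to -0.81 ± 0.40 (log2 fold change ± SE, adjusted p = 0.280 by edgeR, exact permutation p = 0.0460). MiR-1b, 1 edit away from it, had a log2 fold change of -0.61 (exact permutation p = 0.0431). MiR-499-5p and miR-208b-3p, both encoded in myosin heavy chain genes, had -0.82 each (exact permutation p = 0.0309 and 0.0501), and miR-133a-3p -0.21. Whether the share of heart muscle in each wax block had a part in these differences was not tested.

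**Figure D3:**
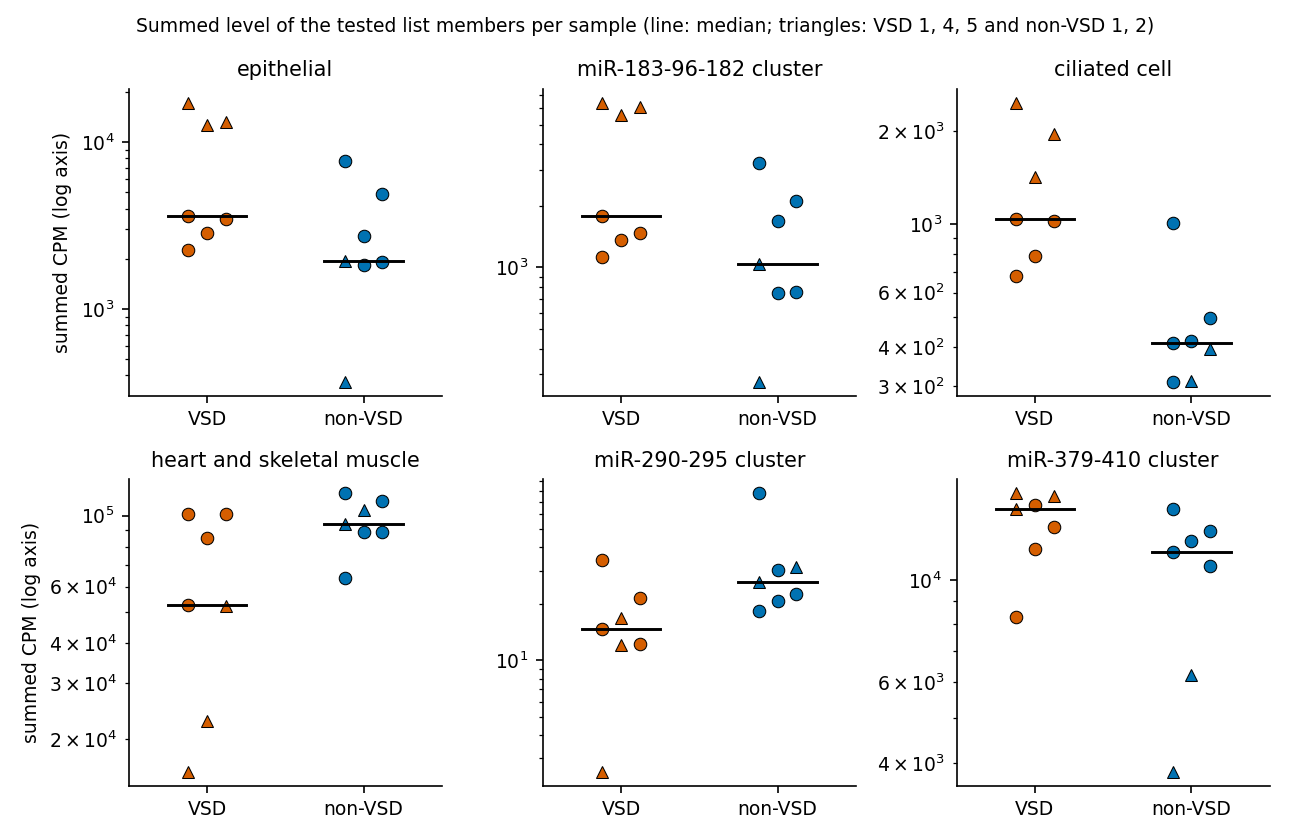
Summed TMM-scaled CPM of the tested members of 6 lists in each sample, on log axes that differ between panels, with lines at the medians. Triangles are VSD 1, VSD 4 and VSD 5 and non-VSD 1 and non-VSD 2. The 3 marked VSD libraries are the highest for epithelial (12680 to 17230 CPM) and miR-183-96-182 microRNAs, while VSD 1 and VSD 4 are the lowest for heart and skeletal muscle microRNAs (15810 and 22860 CPM).

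MiR-7b, known from neural and neuroendocrine cells, was higher without those libraries too. MiR-7b ranged from 28.8 CPM in VSD 7 over a median of 93.1 to 391 in VSD 3, and from 3.48 over 24.6 to 71.0 in the non-VSD group. All 7 VSD samples exceeded the non-VSD median and 5 exceeded the highest non-VSD sample. MiR-7b was higher by 2.22 ± 0.69 (log2 fold change ± SE, adjusted p = 0.191 by edgeR, exact permutation p = 0.00816), and by 2.37 without VSD 1, VSD 4 and VSD 5. MiR-7a-5p, 1 edit away, had a log2 fold change of 0.33 (exact permutation p = 0.539), so reads counted on the wrong member could blur either value. MiR-124-3p, the main microRNA of neurons, met the threshold at 1.96 and was highest in VSD 7, at 29.4 CPM. The other VSD samples were between 0.472 and 4.68 CPM and the non-VSD samples between 0.268 and 4.14, and without VSD 7 its log2 fold change was 0.20. Its p was also over 0.05 without non-VSD 3, non-VSD 4, non-VSD 6 or non-VSD 7 (1.80 to 1.95). Of the 10 listed members of this list 7 were tested, with a median of 0.72. MiR-7b and miR-124-3p were called, against 4.85% of all microRNAs tested called higher.

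A group of single microRNAs was also higher. MiR-338-3p, encoded within Aatk, a kinase gene of neurons, lay between 3.23 and 13.4 CPM against 0.360 to 4.82 CPM (log2 fold change 1.43 ± 0.47, exact permutation p = 0.00758). Its 5p arm followed at 0.79, under a fold of 2. MiR-92b-3p was at 35.3, 83.8 and 189 CPM in the lowest, median and highest VSD sample and at 9.55, 31.9 and 77.7 CPM in the other group, also 1.43 on the log2 scale (exact permutation p = 0.0326). The other tested carriers of its seed with a RefSeq sequence, miR-92a-3p, miR-25-3p, miR-32-5p and miR-363-3p, were between -0.49 and 0.39 and did not meet the threshold. Without VSD 1, VSD 4 and VSD 5 miR-92b-3p was at 0.39, with a p over 0.05 by edgeR. MiR-221-5p, the less abundant arm of a microRNA of vessel wall and proliferating cells, had a log2 fold change of 1.07 and miR-384-5p one of 1.32, and these were 0.77 and 0.96 without VSD 3, in which both were highest. MiR-384-5p has the seed of the miR-30 family. Its tested members with a RefSeq sequence, miR-30a-5p, miR-30c-5p and miR-30e-5p, were between -0.07 and 0.35. Others, such as miR-30b-5p and miR-30d-5p, were tested but had no sequence to compare.

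MiR-10a-5p and miR-10b-5p, encoded in the Hox clusters that pattern the body axis, differed in which samples were high. MiR-10a-5p was highest in VSD 1, VSD 4 and VSD 5, at 36080, 32210 and 28740 CPM, with 3520 to 19720 CPM in the non-VSD group (log2 fold change 1.07, exact permutation p = 0.0402). It was under a fold of 2 without VSD 1 (0.87), VSD 4 (0.92), VSD 5 (0.96) or non-VSD 1 (0.97). MiR-10b-5p was highest in VSD 3, at 7117 CPM, with 538.7 to 3159 in the other VSD samples and 298 to 2152 in the non-VSD group. Its log2 fold change of 1.17 (exact permutation p = 0.122) was 0.66 without VSD 3, and its p was over 0.05 by edgeR when any 1 of 6 other libraries was left out (1.02 to 1.17).

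The imprinted miR-379-410 cluster, made from the maternal chromosome as part of the Dlk1-Dio3 region and prominent in fetal tissue, had mostly positive values. Of 57 listed members 50 were tested, 48 had a positive log2 fold change, and the median was 0.41. An unadjusted p under 0.05 was reached by 9, all higher, and the threshold by 2, against 10.1% and 4.85% of all microRNAs tested. The share over the threshold was thus near that of the whole table. MiR-329-5p (1.09, exact permutation p = 0.0181) and miR-539-3p (1.03, exact permutation p = 0.0140) also reached a fold of 2. Without VSD 3 miR-329-5p was at 0.82, and without VSD 1, VSD 5, non-VSD 1, non-VSD 2 or non-VSD 6 miR-539-3p was at 0.91 to 0.94. MiR-494-3p came close to a fold of 2 at 0.99 (exact permutation p = 0.00699). It was at 78.6, 142 and 262 CPM in the lowest, median and highest VSD sample and at 54.8, 69.4 and 136 CPM in the non-VSD group, with 4 VSD samples above the highest non-VSD sample. MiR-300-5p and miR-409a-5p, with 0.94 and 0.71, had a p under 0.05 but a fold below 2. The summed level was 3826 CPM in non-VSD 1 and 6223 in non-VSD 2, against 10710 to 14300 in the other 5 non-VSD samples and 8285 to 15460 in the VSD group. Without non-VSD 1 and non-VSD 2 the median was 0.14 and 0 members reached the threshold, with 4 at an unadjusted p under 0.05.

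Among the lower microRNAs, the miR-290-295 cluster is the main microRNA cluster of embryonic stem cells in rodents and fades as tissues differentiate. Of 9 listed members 6 were tested. All 6 had a negative log2 fold change, with a median of -1.25. Over all microRNAs tested 2.74% were lower at the threshold, and 5 of these 6 members met it. By limma 0 met it, with 5 at an unadjusted p under 0.05 and a median of -0.88, and 2 met it with all 3 groups in one fit or without non-VSD 1 and non-VSD 2. With library size only 3 met it, and at 10 or more counts in every sample 0 members were left to test. Levels were low throughout, with a summed level of 2.55 to 34.1 CPM in the VSD group and 18.2 to 78.1 CPM in the non-VSD group, and 5 VSD samples under the lowest non-VSD sample. MiR-291a-3p was at 0.189, 1.41 and 2.76 CPM in the lowest, median and highest VSD sample and at 2.34, 2.94 and 10.3 CPM in the non-VSD group, from 77 and 153 counts in all. MiR-291a-3p thus stood at -1.49 ± 0.47 (log2 fold change ± SE, adjusted p = 0.191 by edgeR, exact permutation p = 0.00408), and 6 VSD samples lay under the lowest non-VSD sample. MiR-292-5p had -1.32, miR-292-3p -1.28, miR-295-3p -1.23 and miR-291b -1.15. MiR-293-5p, which has the seed of miR-292-5p, did not meet the threshold (-0.64, exact permutation p = 0.136). VSD 1 was the lowest library for this cluster and non-VSD 7 the highest. Without non-VSD 7 miR-292-5p (-1.01), miR-292-3p (-0.79) and miR-295-3p (-0.77) had a p over 0.05, and miR-291b (-0.98) had a fold under 2. Without VSD 1 miR-291b (-0.92) and miR-295-3p (-0.9996) were also under a fold of 2, and without VSD 4, non-VSD 1 or non-VSD 2 miR-292-3p (-1.23 to -1.21) and miR-295-3p (-1.19 to -1.14) had a p over 0.05, as had miR-295-3p without VSD 7 (-1.07). When VSD 1, VSD 4 and VSD 5 were left out together, miR-291a-3p alone met the threshold (-1.15). RefSeq places miR-291a, miR-291b and miR-292 next to each other on chromosome 1 (chr1:74879204-74879789, minus strand, within Nlrp12) and miR-295-3p at chr1:82352201-82352222 on the plus strand.

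At such levels the filter bears on the result. A microRNA passed it with at least 1.35 CPM in 7 samples, and 21 of the 36 DE-microRNAs were over that level in all 14. For miR-509-3p, miR-291b, miR-292-5p and miR-547-5p fewer than 4 VSD samples were. When at least 10 counts in every sample were required, 371 microRNAs were left, with 21 higher and 3 lower DE-microRNAs. MiR-291a-3p, miR-291b, miR-292-3p and miR-295-3p have the letters AAGUGC, as do the miR-17 family members miR-17-5p, miR-20a-5p, miR-20b-5p, miR-93-5p and miR-106b-5p, which act in proliferating cells and had log2 fold changes between -0.05 and 0.73. MiR-20b-5p was the highest of them (0.73, exact permutation p = 0.00408), at 16.2 to 35.1 CPM against 11.2 to 20.5 CPM.

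Of the 13 lower DE-microRNAs 6 (46.2%) are encoded on the X chromosome, against 58 of the 436 tested microRNAs with a locus (13.3%) and 2 of 20 higher ones. The set was singled out after its values were seen and is not independent evidence. These shares count each member of a cluster and each arm of a hairpin singly. Some members passed the filter mainly through the non-VSD group. MiR-509-3p was over 1.35 CPM in 1 VSD and 6 non-VSD samples and miR-547-5p in 3 and 5. MiR-547-3p and miR-504 were over that level in 7 and 7. MiR-3585-3p, miR-201-5p, miR-547-3p, miR-547-5p and miR-509-3p lie in 1 cluster that in rodents is known mainly from testis and placenta. MiR-3585-5p, of the same cluster, did not meet the threshold (-0.48, exact permutation p = 0.379), and miR-509-5p was under the filter with 39 and 63 counts. MiR-547-3p was at 3.16, 7.27 and 32.6 CPM in the lowest, median and highest VSD sample and at 14.2, 30.1 and 32.5 CPM in the non-VSD group. The VSD samples were under the lowest non-VSD sample in 6 of 7 cases, and VSD 7 was over the highest. The log2 fold change of miR-547-3p was -1.29 ± 0.45 (SE, adjusted p = 0.191 by edgeR, exact permutation p = 0.00699), and -1.89 without VSD 7. MiR-3585-3p was at -1.57 (exact permutation p = 0.00408) and miR-509-3p at -1.55 (exact permutation p = 0.00991), and the latter was at -2.18 without VSD 7. VSD 7 was the highest VSD sample for all 5. MiR-201-5p (-1.19) and miR-547-5p (-1.02) lost their calls when any 1 of 8 libraries was left out, at -1.15 to -0.97 and -0.99 to -0.85. Without VSD 1, VSD 4 and VSD 5 these were at -0.73 for miR-547-3p, -0.95 for miR-3585-3p and -0.95 for miR-509-3p, each under a fold of 2. MiR-504 lies apart, within Fgf13 at chrX:142354466-142354487 (minus strand). It ranged from 71.6 to 567 CPM in the VSD group and from 351 to 1220 CPM in the non-VSD group (log2 fold change -1.17, exact permutation p = 0.0157), with 5 VSD samples under the lowest non-VSD sample. Without non-VSD 1, its highest sample, it was at -0.88.

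MiR-147, which macrophages induce on activation, had the lowest p among the lower microRNAs (-1.02 ± 0.27, SE, adjusted p = 0.191 by edgeR, exact permutation p = 0.00175). It was at 1.17, 1.70 and 2.26 CPM in the lowest, median and highest VSD sample and at 1.87, 3.26 and 5.14 CPM in the non-VSD group, and 5 VSD samples lay under the lowest non-VSD sample. The fold was just past the threshold and fell under it without VSD 3, VSD 4, VSD 5, non-VSD 2, non-VSD 5 or non-VSD 7 (-0.99 to -0.87). MiR-144-3p, a microRNA of red cell precursors, met the threshold at -1.34 (exact permutation p = 0.302), while all VSD samples (38.6 to 300 CPM) lay within the non-VSD range (35.1 to 910). Its p was over 0.05 by edgeR when any 1 of 9 libraries was left out (-1.41 to -0.91). The other red blood cell members miR-144-5p, miR-451-5p, miR-451-3p and miR-486 were between -0.67 and -0.06. Of the microRNAs with a p under 0.05 and a fold below 2, miR-22-3p, which is abundant in heart muscle, had a median of 3572 CPM in the VSD group and 7095 in the non-VSD group (-0.67, exact permutation p = 0.00991), and 4 VSD samples lay under the lowest non-VSD sample. MiR-676 had -0.996, miR-3473 -0.79, miR-301b-5p -0.78 and miR-330-5p -0.68.

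The remaining lists held few microRNAs under that p. Endothelial miR-126a-3p had a log2 fold change of -0.43 (exact permutation p = 0.00466) and its 5p arm 0.23. Of 4 smooth muscle microRNAs, miR-143-3p (-0.33, exact permutation p = 0.0117) and miR-143-5p (-0.42, exact permutation p = 0.0321) had an edgeR p under 0.05. In the mesenchymal list miR-199a-5p was at 0.42 (exact permutation p = 0.0490), with a list median of 0.09. None of the 7 fibrosis-linked (median -0.02), 6 white blood cell (-0.33), 4 inflammation-induced (0.19) or 3 liver and gut microRNAs (-0.09) had an unadjusted p under 0.05 by edgeR. MiR-122-5p, a liver microRNA, reached 3100 CPM in VSD 3, against 28.7 CPM in the lowest VSD sample and 442 to 721 CPM in the non-VSD group.

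**Figure D4:**
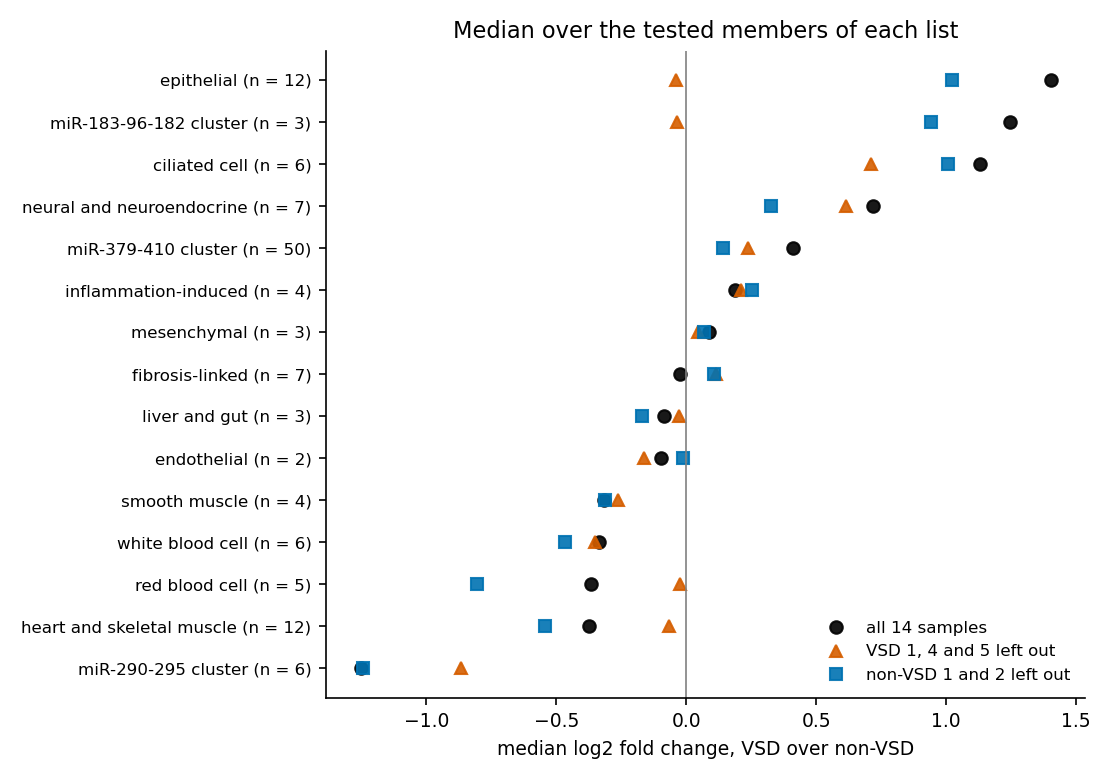
Median log2 fold change of VSD over non-VSD over the tested members of 15 lists, with all 14 samples, without VSD 1, VSD 4 and VSD 5, and without non-VSD 1 and non-VSD 2. The epithelial median is 1.403 with all samples and -0.04 without the 3 VSD libraries, while the miR-290-295 median is -1.25, -0.87 and -1.24 in the same order.

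Of 18 microRNAs named in the study's main text, a choice that leaves out others of its lists, miR-7b and miR-384-5p met the threshold here and 11 others were tested without meeting it. MiR-185-5p (-0.66), miR-1839-5p (-0.56) together with miR-3473 (-0.79) were lower at an unadjusted edgeR p under 0.05. Of these, miR-1839-5p was over that p when any 1 of 8 libraries was left out (-0.55 to -0.45). MiR-325-5p (0.97), miR-142-3p (-0.84), miR-301a-3p (0.31) and miR-3064-5p (-0.56) did not reach that p, nor did miR-1-3p, miR-293-5p, miR-96-5p and miR-1b described above. MiR-741-3p, miR-363-5p, miR-874-5p, miR-497-3p and miR-3580-3p were under the filter, the last with 2 counts in the VSD group and 5 in the non-VSD group. The study called these microRNAs between the VSD group and the NC group, on samples that include the VSD group used here. The comparison here is with the non-VSD group, so meeting or missing the threshold is no repeat of those calls.

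In unexposed NC myocardium, on a scale common to the 3 groups, the levels of the 36 did not follow 1 order. The NC median lay beyond the non-VSD median, away from VSD, for 14 of the 23 higher microRNAs, between both medians for 7 and beyond the VSD median for miR-182 and miR-221-5p. NC samples spread widely. MiR-449a-5p spanned 6.91 to 1107 CPM in unexposed samples around a median of 21.8, close to the non-VSD median of 31.8 and far under the VSD median of 238. MiR-34c-5p had an NC median of 544 CPM, between 324 (non-VSD) and 656 (VSD), and an NC range of 229 to 2290. MiR-7b had an NC median of 21.5 CPM, against 23.3 and 87.2. Called epithelial microRNAs reached high levels in NC samples too. The highest NC sample was over the highest VSD sample for miR-375-3p (503 against 326 CPM) and miR-200b-5p (24.4 against 22.1). It was lower for miR-200a-3p (2510 against 2734), miR-205 (641 against 805), miR-203a-3p (338 against 545), miR-429 (1724 against 2208) and miR-141-3p (121 against 210). Of the 13 lower microRNAs, the NC median lay between both medians for 8, beyond the VSD median for miR-291a-3p, miR-291b and miR-295-3p, and beyond the non-VSD median for miR-504 and miR-144-3p. For miR-291a-3p it was 1.20 CPM in the NC group, 1.35 in the VSD group and 2.78 in the non-VSD group. No test was made on these levels here. Against NC, the study called miR-291a-3p, miR-295-3p and miR-547-3p higher and miR-34b-5p and miR-34c-5p lower in the non-VSD group only. It called miR-7b, miR-203a-3p, miR-338-3p, miR-384-5p and miR-539-3p higher in the VSD group only. MiR-144-3p was called lower in both.

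Amniotic fluid of the same 2 groups, 7 samples each with totals of 78188 to 331787 counts, allowed 16 of the 36 to be tested in other libraries. Among 243 microRNAs tested there, 4 (1.65%) were higher and 5 (2.06%) lower at the same threshold, 26 (10.7%) had an unadjusted p under 0.05, and edgeR called 0 (0%) at an adjusted p under 0.05. Of the 16, 10 had the sign they had in myocardium and 6 the opposite sign. The share with the same sign over all microRNAs measured in both is not given here, so no agreement is read from this count. Some of the 16, such as miR-182 and miR-183-5p, lie in the same cluster. MiR-182 (log2 fold change 0.86 ± 0.32) and miR-183-5p (0.91 ± 0.34) had an unadjusted p under 0.05 by edgeR and were higher in VSD fluid as well. MiR-34c-5p was at -0.71 ± 0.53 in fluid, miR-329-5p at -1.61 ± 1.04 and miR-92b-3p at -0.90 ± 0.51, none with a p under 0.05. The difference between myocardium and fluid was tested for all 234 microRNAs measured in both by permuting group labels within each tissue. Labels were permuted separately, which takes hearts and fluids to be independent samples. Whether they share fetuses or dams is not given in the sources used here, so no pairing entered this test. An unadjusted p under 0.05 was reached by 29, among them 4 of the 16, and an adjusted p under 0.05 by 4, among them miR-34c-5p (difference of log2 differences 1.96, adjusted p = 0.0234 by this permutation test). By the same permutation test miR-329-5p (2.71, adjusted p = 0.125) and miR-92b-3p (2.10, adjusted p = 0.179) did not reach it. The 16 had been chosen for a large difference in these myocardium samples, which enlarges their difference from fluid.

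**Figure D5:**
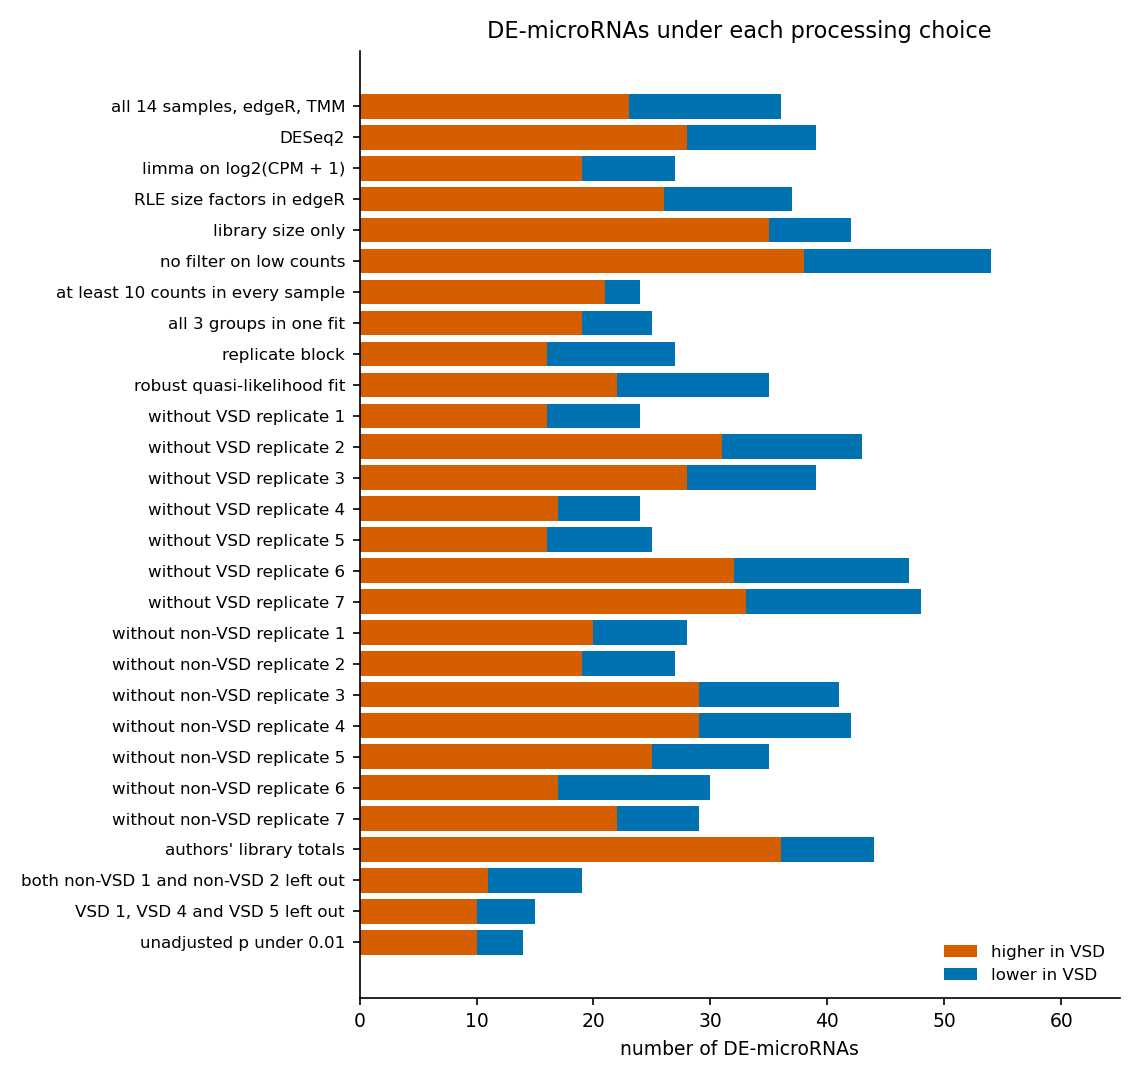
Number of DE-microRNAs higher (left part of each bar) and lower (right part) in the VSD group under each processing choice, on an axis that starts at 0. The count is 36 with all 14 samples and ranges from 14 at an unadjusted p under 0.01 to 54 with no filter on low counts.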

How the data were processed

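Myocardium of 7 VSD and 7 non-VSD fetuses was analysed from the study's read counts per mature microRNA, deposited separately for the VSD and non-VSD groups. Any difference between these deposits cannot be told apart from the group. A microRNA listed for only a single group was given no counts in the other. The count values are those the authors deposited, made from TruSeq small RNA libraries with bcl2fastq 2.19 and the FASTX-Toolkit per the labels and the study's methods, and the aligner, annotation and genome build are not given in the sources used here. The normalized signal columns, in which the authors scaled counts by library, were used only to recover the library totals of the authors. Columns of the authors' own comparisons (fold changes and p-values) and 91 columns of per-sample values without a matching sample label were not used.

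The members and lists were chosen with earlier results of these data known. Counts were filtered with filterByExpr (minimum count 10, minimum total 15), scaled by TMM and tested with edgeR 4.0.16 (quasi-likelihood, R 4.3.3). Fold changes are VSD over non-VSD as estimated by the fit. A prior count of 2 was used only for the log2 levels behind the permutation tests and the principal components. P-values were adjusted by Benjamini-Hochberg over 474 microRNAs, and single values were tested by an exact two-sided permutation test over all 3432 groupings of the 14 samples. The scripts were tested on simulated data. Named were the 15 higher and 15 lower DE-microRNAs with the lowest p (13 were lower), the 5 of each direction with the lowest p under a fold of 2, 18 microRNAs named in the study's main text, and list members. Alternatives used DESeq2 1.42.0, limma 3.58.1, other scalings, filters and sample sets. Amniotic fluid was fitted separately in the same way, and its difference from myocardium was tested with 100000 permutations.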

Additional observations from a re-analysis of the deposited data

Results flagged for a closer look

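In 144 groups of 7 values, 8 held a sample set apart from the others, with a gap to its neighbour of over 0.568 of the whole range. Chance gives about 1 in 20 groups, so the count of 8 is near the chance rate. The groups also overlap, since summed lists hold some of the single microRNAs. Non-VSD 3 was the highest non-VSD sample for miR-34c-5p (0.596) and for the summed ciliated cell list (0.596). VSD 1 was the lowest VSD sample for miR-291a-3p (0.594), miR-291b (0.569) and the summed miR-290-295 cluster (0.598), and non-VSD 7 was the highest non-VSD sample for that cluster (0.621). Non-VSD 1 was the lowest non-VSD sample for the mesenchymal list (0.579). VSD 3 was the smallest VSD library (0.881).

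The VSD against non-VSD difference itself differed between myocardium and amniotic fluid for miR-34c-5p (1.96 on the log2 scale), by a permutation test within each tissue adjusted over 234 microRNAs. That test takes hearts and fluids to be independent samples. It was higher in VSD myocardium and had a negative fold change in VSD fluid. MiR-34c-5p was also a DE-microRNA of these myocardium samples, so its myocardium side was large by choice. Tissue and library kit (TruSeq against QIAseq) cannot be told apart here.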

How the results depend on the processing

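Against 36 DE-microRNAs (23 higher, 13 lower), DESeq2 gave 28 and 11 with 7 at an adjusted p under 0.05, limma 19 and 8, library size alone 35 and 7, the library totals of the authors 36 and 8, no filter on low counts 38 and 16, at least 10 counts in every sample 21 and 3, all 3 groups in one fit 19 and 6, and a p under 0.01 gave 14 (10 and 4). Single libraries left out gave 24 to 48 (16 to 33 higher, 7 to 15 lower), 0 to 2 at an adjusted p under 0.05, and a difference of log2 library totals of 0.17 to 0.58. Chosen after seeing the data, leaving out non-VSD 1 and non-VSD 2 gave 19 (11 and 8), and leaving out VSD 1, VSD 4 and VSD 5 gave 15 (10 and 5) and turned the log2 fold changes of miR-96-5p (-0.68), miR-429 (-0.24), miR-183-5p (-0.0375) and miR-141-3p (-0.23). Fewer samples or microRNAs enter these fits, and the cause of the other shifts was not tested. With the replicate number as a block 27 were called, 20 of them among the 36, and of the same-number correlations (-0.40 to 0.38) 5 of 7 were over 0.1, while 0 of 7 samples correlated best with their own number. Not every pair passed 0.1 and the labels do not say what a number marks, so the numbers were not taken to pair the samples. Over 56 microRNAs and all alternatives, 1235 of 1437 values kept their direction and side of an unadjusted p of 0.05. That p was lost by 170 values and gained by 28, and 4 turned direction. The fold did not enter this count. MiR-147 kept that p throughout, yet met the threshold of p and fold in 9 of 25 alternatives. MiR-449c-5p, miR-7b and miR-338-3p met the threshold of p and fold under every alternative fitted. Depth limits low microRNAs such as the 5 called members of the miR-290-295 cluster, with 56 to 148 counts over the whole VSD group.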
